A study of Pyrus pyrifolia with 2 samples.

Results

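The most abundant transcripts of wounded pear fruit are described here as 1186 loci with an FPKM of 100 or more in both deposited libraries. FPKM is the level of a transcript in fragments, scaled to its length and to the depth of the library. The members were chosen from the gene table deposited by the authors, where 1218 of 46408 rows met the threshold. Rows that repeat the pair of values of a shared locus were counted once, which left 1186 of the 45905 loci in the transcript tables, or 5.19% of the 22873 loci called measured here, whose FPKM averaged 1 or more. Since the choice rests on the levels in both libraries, levels and ratios of the members are given as a description, without a test.

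The fruit was pear (Pyrus pyrifolia), of a cultivar labelled Nakai."Shuijing", and RNA came from tissue in the wounds. In the yeast-treated library, each wound had received 30 μL of a Wickerhamomyces anomalus suspension, and this yeast has been studied for the control of postharvest decay. In the water-treated library, each wound had received 30 μL of sterilized water. Both treatments lasted 3 days in an incubator at 28 °C and 95% relative humidity. The labels do not say how many fruits or wounds went into a library. There was 1 library for each treatment, so no difference below has a replicate check, and no p-value was computed. Intervals cover the error of counting reads only, since pairs read without molecular identifiers can stem from the same molecule. The estimated depth was 16753518 read pairs with yeast and 19367039 with water.

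In plant cells, a small set of genes commonly provides a large share of the messenger RNA. Genes for ribosomal proteins, translation factors, ubiquitin and proteins of stress and defence are often among them. The pear genome carries traces of an ancient duplication of the whole genome, and many of its gene families lie as tandem copies, so that reads from near-identical copies can be assigned to either copy. In whole tissue, fewer cells of a type and less RNA per cell cannot be told apart. The files used here pair no identifier with a gene name, a product or a sequence. The members are therefore given by position, structure and level, and the labelled tissue could not be checked against marker genes.

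The members held close to equal shares of the sequence in both libraries. Their coverage times length made up 45.9% of all covered bases in the yeast-treated library and 46.2% in the water-treated library. Within the members, the bases were again concentrated in few loci. In the yeast-treated library 98 loci held 50% of the members' bases, and 96 did in the water-treated library. The 10 loci with the most bases took 11.7% of all covered bases in the yeast-treated library and 11.9% in the water-treated library. Of the 100 loci with the most bases in each library, 92 were shared.

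**Figure D1:**
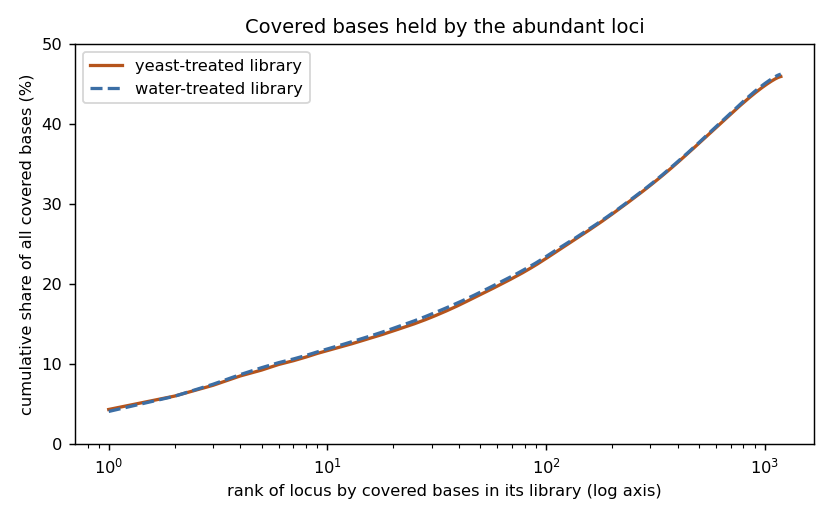
Cumulative share of all covered bases (%, vertical axis) against the rank of the locus by covered bases in its own library (horizontal log axis), with a solid line for the yeast-treated and a dashed line for the water-treated library. Both lines pass 11% at rank 10 and end at 45.9% in the yeast-treated and 46.2% in the water-treated library.

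By level, 670 of the members had a mean FPKM of 100 to 200 and took 11.2% of the bases in the yeast-treated library and 11.3% in the water-treated library. Another 392 lay between 200 and 500 FPKM and took 12.2% with yeast and 12.1% with water. Only 75 lay between 500 and 1000 FPKM, with 5.02% of the bases in the yeast-treated library and 5.01% in the water-treated library. The 49 loci above 1000 FPKM held 17.5% in the yeast-treated library and 17.8% in the water-treated library, more than any lower class. The median member was at 179.0 FPKM in the yeast-treated library, from 2918 read pairs, and at 184.3 FPKM in the water-treated library, from 3415 read pairs. The fewest read pairs on a member were 296 in the yeast-treated library and 357 in the water-treated library.

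The highest FPKM belonged to an annotated chromosome 15 gene of 3 exons and 468 coding bases (minus strand, 26372628 to 26373832). Its level was 33565 FPKM in the yeast-treated library and 38190 FPKM in the water-treated library. An assembled locus of 1 exon and 272 bases, the second by FPKM, lies on the plus strand at 26372360 to 26372631. It overlaps the 3′ end of the annotated gene model by 4 bases. The model holds coding bases only, so its end need not be the end of the transcript. The assembled locus was at 15539 FPKM in the yeast-treated library and 15846 FPKM in the water-treated library. Together they held 2.12% of all covered bases in the yeast-treated library and 2.36% in the water-treated library.

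A pair of the same layout lies on chromosome 13. Its gene has 3 exons on the minus strand (11679869 to 11681119), with 4092 FPKM in the yeast-treated library and 4746 FPKM in the water-treated library. An assembled locus of 312 bases on the plus strand (11679561 to 11679872) overlaps the 3′ end of this span by 4 bases. It was at 1127 FPKM in the yeast-treated library and 1102 FPKM in the water-treated library. Here too, the end of the gene's span need not be the end of the transcript. In both pairs the gene was lower in the yeast-treated library, 1.14-fold on chromosome 15 (95% counting interval 1.13 to 1.14) and 1.16-fold on chromosome 13 (1.14 to 1.18). The log2 ratios of the assembled neighbours were closer to 0, at -0.03 on chromosome 15 and 0.03 on chromosome 13. Whether the libraries keep the strand of the RNA is not stated in the labels or headers, so reads of overlapping loci on opposite strands may not be told apart.

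Most sequence of any locus came from a stretch of chromosome 1 between 9053793 and 9309759, 256.0 kb long, where 3 members overlap. A locus on the minus strand (9060803 to 9309759) with 8 transcripts, 2 of them annotated, was at 8864 FPKM in the yeast-treated library and 8362 FPKM in the water-treated library. It alone held 4.33% of all covered bases in the yeast-treated library and 4.08% in the water-treated library. On the plus strand, an assembled locus of 5 transcripts (9053793 to 9289140) was at 8114 FPKM in the yeast-treated library and 8368 FPKM in the water-treated library. The authors list it under the identifier of an annotated gene, although none of its transcripts is annotated. A second assembled locus there (9288251 to 9309281) has 2 exons and was at 8543 FPKM in the yeast-treated library and 7488 FPKM in the water-treated library. The 3 loci together held 5.77% of the bases in the yeast-treated library and 5.52% in the water-treated library.

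Most of their sequence was in transcripts with long introns. Of the 14 transcripts, 9 span more than 200 kb although each has 3 or 4 exons, and these 9 held 76.7% of the bases of the 3 loci in the yeast-treated library and 78.5% in the water-treated library. The 2 annotated genes inside the minus-strand locus had levels of 268 and 7.13 FPKM with yeast and 239 and 6.17 FPKM in the water-treated library. Of 27 other annotated loci within the span, 10 were measured and none reached a mean of 100 FPKM. The highest values among them were 43.0 FPKM in the yeast-treated library and 47.6 FPKM in the water-treated library. Whether the long transcripts join reads of separate similar genes was not tested, since no sequence was used.

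A similar arrangement at lower level is on chromosome 3, where 4 overlapping members cover 12639636 to 13088924, a span of 449.3 kb. They held 0.170% of the bases in the yeast-treated library and 0.175% in the water-treated library. In all, 7 members (0.590%) spanned more than 50 kb, against 0.424% of the 21687 other measured loci. Without these 7, the members held 40.1% of the bases in the yeast-treated library and 40.6% in the water-treated library.

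The rest of the 12 most abundant members are annotated loci. On scaffold1155.0, a plus-strand locus of 7 exons that merges 2 annotated genes (80015 to 83621) was at 5551 FPKM in the yeast-treated library and 6180 FPKM in the water-treated library. On chromosome 3, a gene of 3 exons (minus strand, 3980826 to 3983415) was at 6140 FPKM in the yeast-treated library and 5526 FPKM in the water-treated library, 1.11-fold higher with yeast (1.102 to 1.12). These loci moved in opposite directions by similar amounts, the scaffold locus being 1.11-fold lower (1.11 to 1.12). On the same chromosome, a gene of 13 exons (plus strand, 23191427 to 23195497) was at 3434 FPKM in the yeast-treated library and 4041 FPKM in the water-treated library, 1.18-fold lower (1.17 to 1.19). It had the largest ratio in either direction among the 12.

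On chromosome 15, a 2-exon gene (plus strand, 2067588 to 2069159) was at 5069 FPKM in the yeast-treated library and 4850 FPKM in the water-treated library. The shortest of the 12, a 1-exon gene of 195 bases on chromosome 8 (plus strand, 14060469 to 14060663), was at 4330 FPKM in the yeast-treated library and 4435 FPKM in the water-treated library. The last is a 3-exon locus on chromosome 12 (plus strand, 6891835 to 6892858), whose annotated transcript has a coding length of only 165 bases inside a locus of 639 bases. That locus was at 3947 FPKM in the yeast-treated library and 4291 FPKM in the water-treated library. Of the 12 loci of highest FPKM in each library, 11 were shared.

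In structure, the members were mostly annotated genes, and shorter than other measured loci. Of the 1186 members, 1113 (93.8%) held an annotated transcript, against 83.7% of the other measured loci. The median length behind the FPKM was 894 bases for members and 1273 bases for the others. Only 9.44% of members were longer than 2000 bases, against 25.6% of the others, and 22.8% had up to 500 bases, against 15.1%. FPKM divides by length, so length and the choice of members are not independent. No enrichment test was run.

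The members had intermediate numbers of exons. Of them, 463 (39.0%) had 3 to 5 exons, against 24.8% of the other measured loci. A single exon was found at 146 members (12.3%), against 19.0% of the others, 2 exons at 175 (14.8%), against 13.7%, and 6 or more at 402 (33.9%), against 42.5%. The 1-exon classes differ in annotation, since 87.7% of the 1-exon members were annotated, against 62.6% of the other 1-exon loci. The median was 4 exons for members and 4 for the others. Compared with the nearest lower class, the 5128 other loci at 20 to 100 FPKM, members were also shorter, with a median of 894 bases against 1246, while the share of annotated loci was 93.8% against 94.0%.

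**Figure D2:**
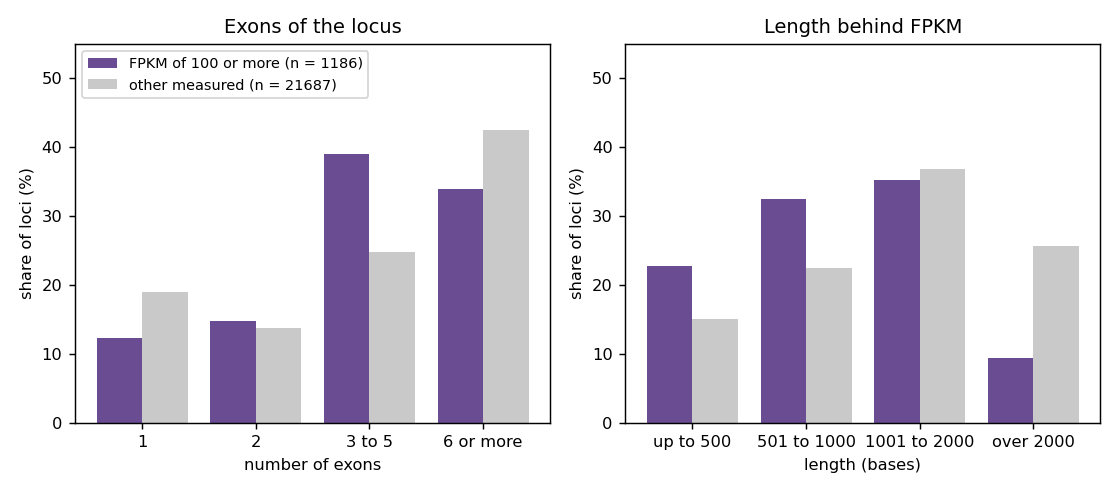
Shares of loci (%, vertical axes) by number of exons (left) and by length behind the FPKM in bases (right), for the 1186 members (purple) and the 21687 other measured loci (grey). Members exceed the others at 3 to 5 exons (39.0% against 24.8%) and up to 1000 bases, and fall below them over 2000 bases (9.44% against 25.6%).

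The extremes of structure show the range. The longest member is a chromosome 9 gene of 18 exons and 9850 bases (minus strand, 21758266 to 21770877), with 214.5 FPKM in the yeast-treated library and 234.9 FPKM in the water-treated library. A locus on scaffold995.0 (plus strand, 1025 to 6610) covers 5489 bases although its annotated transcript has a coding length of 372. That locus was at 238.5 FPKM in the yeast-treated library and 189.3 FPKM in the water-treated library, 1.26-fold higher with yeast (1.24 to 1.28). The third by length, with 12 exons and 5479 bases, lies on chromosome 11 (minus strand, 179251 to 187157) and was at 293.1 FPKM in the yeast-treated library and 301.7 FPKM in the water-treated library.

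Most exons were found in a gene of chromosome 8 (plus strand, 10660750 to 10668448), with 29 exons in 2967 bases. It was at 215.7 FPKM in the yeast-treated library and 193.9 FPKM in the water-treated library. A 28-exon gene on chromosome 4 (minus strand, 346511 to 354474) was at 103.4 FPKM in the yeast-treated library and 101.3 FPKM in the water-treated library. Next came a locus of 24 exons on chromosome 8 (minus strand, 15611212 to 15616600), at 168.3 FPKM in the yeast-treated library and 152.7 FPKM in the water-treated library. All 3 were slightly higher in the yeast-treated library, by 1.11-fold (1.08 to 1.14), 1.02-fold (0.982 to 1.06) and 1.102-fold (1.06 to 1.14), and the interval of the second includes 1.

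A single transcript model was present at 799 members (67.4%), against 62.1% of the other measured loci. At 316 of the 1113 annotated members (28.4%), the transcript with the most bases was an assembled one and not the annotated model, against 38.7% of the other annotated loci. It was longer than the annotated coding length at 291 of the 316, with a median difference of 323.5 bases over the 316. Annotated lengths are all multiples of 3, so they hold no untranslated regions, while assembled transcripts can.

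Transcript usage hardly moved at most members. In the 387 members that have several transcripts, the share of the locus held by the transcript that moved most changed by a median of 0.308 percentage points, and 333 moved by under 5 points. In 18 of them (4.65%) another transcript led in each library, and 19 had a transcript listed at 0 in 1 library. Other measured loci were not summarised in this way, so the counts of moves have no background. Moves of 50 points or more occurred in 6 members, and no counting interval was computed for shares. On chromosome 5 (4925570 to 4929570), an assembled transcript of 6 exons and 1560 bases held 0.297% of its locus in the yeast-treated library and 76.5% in the water-treated library. The FPKM of that locus differed little, at 172.2 in the yeast-treated library and 188.0 in the water-treated library. On chromosome 3 (18183371 to 18185196), a 5-exon transcript held 33.9% in the yeast-treated library and 99.2% in the water-treated library, with the locus at 109.1 FPKM with yeast and 112.0 FPKM with water. Among the 6, the locus was past 1.2-fold at 2 and within 1.2-fold at 4. One of the pair past it lies on chromosome 10 (3053396 to 3057589), where a 3-exon transcript held 99.9% with yeast and 36.4% with water and the locus was at 252.9 FPKM with yeast and 349.9 FPKM with water. The other lies on chromosome 15 (30722755 to 30723699), where the annotated transcript was listed at 0 with yeast and held 56.2% with water. Its locus was at 108.5 FPKM with yeast and 135.4 FPKM with water. How reads were divided among overlapping transcripts was not tested.

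The 73 members without an annotated transcript were short, with a median of 571 bases, and 18 had 1 exon, 28 had 2 and 27 had 3 or more. Some of them are listed by the authors under the identifier of an annotated gene. Of the 73, 35 overlapped the span of an annotated locus, 34 of them on the opposite strand. At 6 of the 34, the overlap was only 2 to 4 bases. The strand is that of 1 overlapped locus per member, and 8 of the 73 overlapped a measured locus on the same strand. An assembled transcript grouped into a locus with an annotated one is not among the 73. The strand of the overlaps is thus set in part by how loci were grouped, and nothing is read from it. Any measured locus was overlapped by 46.6% of the assembled members, against 29.1% of the other assembled loci. At 20 of the 35, the overlapped locus was a member too. A further 18 lay within 1 kb of an annotated locus without overlap, 17 lay 1 to 10 kb away, and 3 were farther. Assembled members held 3.35% of all covered bases in the yeast-treated library and 3.31% in the water-treated library, most of it in the loci of chromosomes 1 and 15 described above.

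Overlapping pairs could have close ratios. On chromosome 11, an assembled plus-strand locus (14137772 to 14138158) was at 632.6 FPKM in the yeast-treated library and 486.2 FPKM in the water-treated library. The annotated minus-strand gene it overlaps (14137976 to 14140227) was at 503.1 FPKM in the yeast-treated library and 408.0 FPKM in the water-treated library. Their log2 ratios were 0.38 and 0.30. Other pairs differed: on chromosome 12, the assembled minus-strand locus at 7289901 to 7290432 had a log2 ratio of -0.34 inside a plus-strand gene of -0.10. Over all members, 120 (10.1%) overlapped another measured locus, against 10.2% of the other measured loci.

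Members lay on all 17 chromosomes and on 81 scaffolds. As a share of the measured loci, they ranged from 4.53% on chromosome 7, with 39 of 860, to 7.18% on chromosome 16, with 61 of 850. Chromosome 15 held the most, 130 of 2357 measured loci (5.52%). On unplaced scaffolds, 113 of 3446 measured loci (3.28%) were members. By the bases that members held, the order was different. The 46 members on chromosome 1 held 6.83% of all covered bases in the yeast-treated library and 6.58% in the water-treated library, more than the members of any other chromosome. Most of this was in the 3 overlapping loci described above, with 5.77% in the yeast-treated library and 5.52% in the water-treated library. The rank of chromosome 1 thus rests on that stretch. The 130 members on chromosome 15 followed with 6.06% in the yeast-treated library and 6.30% in the water-treated library.

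Some members were neighbours, and loci that overlap are counted as neighbours here. Of 1160 members with a next measured locus on the same sequence, that locus was a member for 100 (8.62%), against 5.06% for the other measured loci. With at most 50 kb between a member and the next, 50 clusters of 3 or more members were found on 13 chromosomes and 2 scaffolds. They held 172 members (14.5%), with 3 members in 33 clusters, 4 in 13, 5 in 3 and 6 in 1. Only 10 of the 50 had all members on the same strand. In 32 clusters no member was past 1.2-fold, and in none were all members past 1.2-fold in the same direction. Over all members only 4.64% were past it in each direction, so a cluster wholly past it was unlikely beforehand. Of the 172 clustered members, 15 were higher and 11 lower by 1.2-fold or more. Whether neighbours change together was not tested.

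The cluster with 6 members lies on chromosome 11 between 24674648 and 24824502, with 17 measured loci in its span. Its members have coding lengths of 177 to 1515 bases; 3 lie on each strand. They were at 103.8 to 359.8 FPKM in the yeast-treated library and 108.6 to 376.1 FPKM in the water-treated library. All 6 were slightly lower with yeast, with log2 ratios of -0.24 to -0.01, and the counting intervals of 4 of them included 1. A cluster of 5 on chromosome 15 (15175071 to 15254818) had log2 ratios on both sides of 0. In order of position, they were at 257.9, 210.1, 174.1, 497.4 and 278.9 FPKM with yeast and at 223.1, 198.8, 207.4, 496.7 and 295.8 FPKM in the water-treated library.

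A cluster of 5 members on chromosome 16, between 4530730 and 4638587, held the 2 highest ratios of all members. Both belong to overlapping minus-strand loci. The annotated 1-exon gene Pbr040343 (4549187 to 4549465), of 279 coding bases, was at 246.0 FPKM in the yeast-treated library and 131.4 FPKM in the water-treated library, 1.87-fold higher (1.70 to 2.06). It lies within the span of a locus that merges 2 annotated genes (4530730 to 4558324), in the gene table under Pbr040339 among others, which was at 450.4 FPKM in the yeast-treated library and 241.0 FPKM in the water-treated library, 1.87-fold higher (1.801 to 1.94). A 2-exon gene farther along (4579722 to 4580372) was at 1469 FPKM in the yeast-treated library and 1152 FPKM in the water-treated library, 1.28-fold higher (1.24 to 1.31). A 1-exon gene at the end (4638108 to 4638587) was at 216.5 FPKM in the yeast-treated library and 139.9 FPKM in the water-treated library, 1.55-fold higher (1.44 to 1.66). The remaining locus (4590883 to 4599127) was at 354.9 FPKM in the yeast-treated library and 332.4 FPKM in the water-treated library, 1.07-fold higher (1.03 to 1.104). All 5 were thus higher in the yeast-treated library, and 4 past 1.2-fold. As summed bases, the log2 ratio of the cluster was 0.44.

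Except for Pbr040343, the longest annotated transcript of each member of this cluster has exactly 480 bases, enough for 159 codons and a stop. This was the commonest coding length among the members. Of 41 measured loci with a coding length of 480 bases, 18 were members. On chromosome 13 there were 8 of them and on chromosome 16 there were 4, with 6 on other chromosomes. Equal length does not show that genes are related, and sequences were not compared. The 18 loci were noticed after their values were seen.

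Together the 18 had a summed 11350 FPKM in the yeast-treated library and 9902 FPKM in the water-treated library. They took 0.671% of all covered bases in the yeast-treated library and 0.578% in the water-treated library. Of the 18, 13 were higher with yeast, 6 of them past 1.2-fold, and none was lower past 1.2-fold. Over all 41 measured loci of this coding length, 11 were higher and 3 lower past 1.2-fold, with a median log2 ratio of 0.11, beside 15.4% higher and 14.3% lower over all measured loci. The median log2 ratio of the 18 was 0.14, with a range of -0.23 to 0.90, against -0.02 over all members. By level, the highest of the 18 was a 2-exon gene on chromosome 13 (9009864 to 9010507), at 3146 FPKM in the yeast-treated library and 2891 FPKM in the water-treated library. A second 2-exon gene there (9294140 to 9294784) was at 1698 FPKM in the yeast-treated library and 1515 FPKM in the water-treated library.

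**Figure D3:**
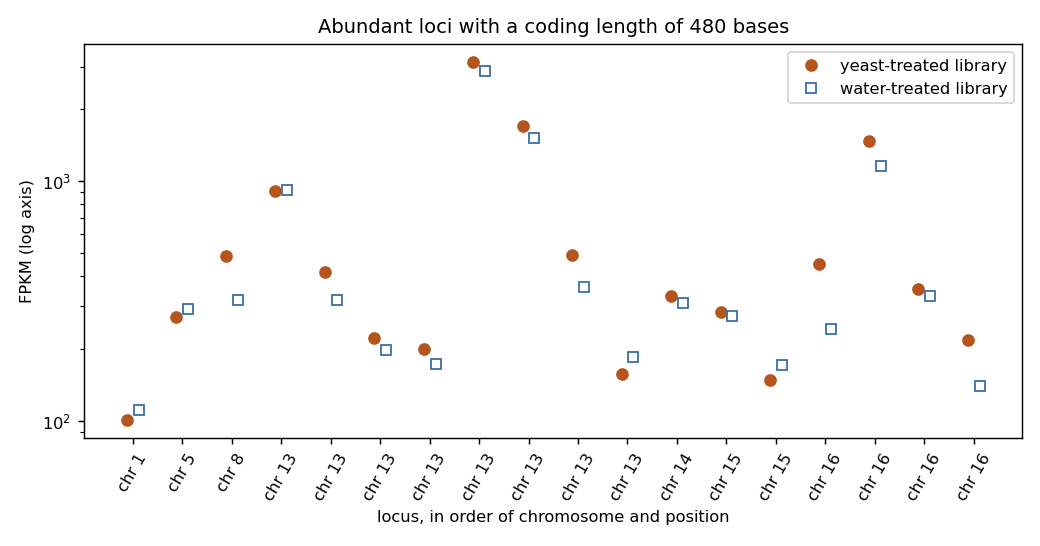
FPKM (vertical log axis) of the 18 members with a coding length of 480 bases in the yeast-treated library (filled circles) and the water-treated library (open squares), ordered by chromosome and position. In 13 of the 18 the circle is above the square, and the widest gap is at the first locus of chromosome 16 (450.4 against 241.0 FPKM).

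The members of that length differed even between neighbours on chromosome 13. At 9365722 to 9366201, a 1-exon gene was at 492.6 FPKM in the yeast-treated library and 362.1 FPKM in the water-treated library, 1.36-fold higher (1.30 to 1.42). Another at 9382163 to 9382642 was at 157.1 FPKM in the yeast-treated library and 184.4 FPKM in the water-treated library, 1.17-fold lower (1.09 to 1.26). Between them and the 2-exon gene at 9294140 lies an assembled plus-strand locus of 3 exons (9321175 to 9344024). The authors list this assembled locus under the identifier of an annotated gene. It overlaps measured loci on both strands. It was at 415.5 FPKM in the yeast-treated library and 250.7 FPKM in the water-treated library, 1.66-fold higher (1.59 to 1.73). On chromosome 8, a 1-exon gene of 480 bases (plus strand, 8961969 to 8962448) was 1.53-fold higher (1.46 to 1.61), at 486.8 FPKM in the yeast-treated library and 318.2 FPKM in the water-treated library.

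Among the members with a single annotated gene, 28 coding lengths occurred 6 times or more. For 5 of them all members lay on the same side of a log2 ratio of 0, while 679 of the 1186 members (57.3%) were below 0. The 7 members of 339 bases had log2 ratios within -0.22 to -0.16, with levels of 167.9 to 327.2 FPKM in the yeast-treated library and 194.2 to 364.6 FPKM in the water-treated library. They lie on chromosomes 8, 12 and 15 and on 2 scaffolds. The 6 members of 1335 bases were all higher with yeast, with log2 ratios of 0.07 to 0.48. The 9 of 447 bases were all slightly lower, at -0.14 to -0.01. These groups were also picked after their values were seen.

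Across all 1186 members, the libraries differed little. The log2 ratio had a median of -0.02, with 809 members (68.2%) within 1.1-fold, against 0.01 and 46.8% over all measured loci. In 55 members (4.64%) the ratio was 1.2-fold or more to the side of yeast, against a background of 15.4% of all measured loci. Another 55 (4.64%) were lower by 1.2-fold or more, against a background of 14.3%. The nearest lower class, the 5128 other loci at 20 to 100 FPKM, was close to the members. Of that class, 66.5% lay within 1.1-fold, 3.74% were higher and 6.57% lower by 1.2-fold or more. The rule used both libraries, so nothing is read from these counts against their background. Counting error differs too: the median interval of a member was 1.105-fold wide (upper over lower bound), and that of all measured loci was 1.49-fold.

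To separate shifts from counting error, the whole 95% counting interval was required to lie beyond 1.2-fold. This held for 39 members in the higher direction (3.29%, background 1.84%) and 25 in the lower (2.11%, background 1.73%). The higher ones had ratios of 1.23 to 1.87 with a median of 1.33-fold, and the lower ones were 1.26-fold to 1.73-fold lower with a median of 1.37-fold. Their median lengths were 759 and 888 bases, and 8 of the 39 and 9 of the 25 had 1 exon. Of the 39 higher members, 14 overlapped another measured locus, as did 1 of the 25 lower ones. Without overlapping loci, 25 higher and 24 lower members remained. The spread between fruits is not covered by these intervals and was not measured.

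**Figure D4:**
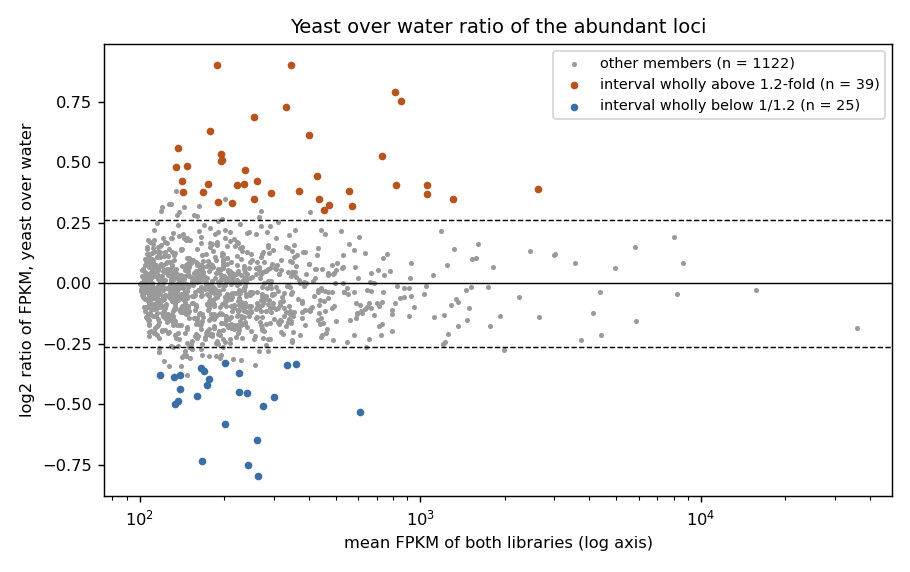
Log2 ratio of FPKM, yeast over water (vertical axis), against the mean FPKM of both libraries (horizontal log axis) for each of the 1186 members, with dashed lines at 1.2-fold. Orange points are the 39 members whose 95% counting interval lies wholly above 1.2-fold and blue points the 25 wholly below, all of which have a mean under 5000 FPKM.

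By level, the share of members beyond counting error was lowest next to the threshold and in the highest class. The rule asks for 100 FPKM in both libraries, so near the threshold it leaves out loci with wide shifts. Of the 64 loci with a mean of at least 100 FPKM that missed it, 11 were higher and 8 lower by 1.2-fold or more. The share next to the threshold is therefore set in part by the rule. The median counting interval was 1.12-fold wide at 100 to 200 FPKM and 1.04-fold at 1000 to 5000 FPKM. Over all measured loci 1.84% were higher and 1.73% lower by this measure. Of the 670 members with a mean of 100 to 200 FPKM, 13 were higher and 12 lower, together 3.73%. Of the 392 at 200 to 500 FPKM, 16 were higher and 12 lower, together 7.14%. At 500 to 1000 FPKM, 6 of 75 were higher and 1 was lower, together 9.33%. At 1000 to 5000 FPKM, 4 of 42 (9.52%) were higher and none was lower by the interval, while 1 was lower by the ratio alone. Above 5000 FPKM, none of the 7 loci was past 1.2-fold.

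Several of the higher ratios came in pairs or groups by position. On scaffold719.0, 2-exon genes of 747 bases on the plus strand (203049 to 204171) and the minus strand (14185 to 15307) have spans of equal length. The first was at 1028 FPKM in the yeast-treated library and 593.8 FPKM in the water-treated library, 1.73-fold higher (1.68 to 1.78). The second was at 1069 FPKM in the yeast-treated library and 634.3 FPKM in the water-treated library, 1.68-fold higher (1.64 to 1.73). Their levels and ratios were thus close. Whether both are copies that share reads was not tested.

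On chromosome 6, 3 of the 4 members between 18354588 and 18403046 were higher and overlap each other. The annotated plus-strand locus of 5 exons (18380781 to 18403046) was at 275.5 FPKM in the yeast-treated library and 199.1 FPKM in the water-treated library, 1.38-fold higher (1.35 to 1.42). Inside it on the minus strand, a 1-exon assembled locus (18382882 to 18383283) was at 864.0 FPKM in the yeast-treated library and 599.3 FPKM in the water-treated library, 1.44-fold higher (1.39 to 1.499). A 2-exon assembled locus on that strand (18382172 to 18399975) was at 231.5 FPKM in the yeast-treated library and 162.5 FPKM in the water-treated library, 1.42-fold higher (1.34 to 1.51). The fourth member, which overlaps none of these, was at 204.0 FPKM in the yeast-treated library and 202.2 FPKM in the water-treated library. On chromosome 1, a 5-exon locus (minus strand, 10287098 to 10289727) was 1.61-fold higher (1.55 to 1.67), at 314.2 FPKM in the yeast-treated library and 195.0 FPKM in the water-treated library.

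The 8 lowest ratios beyond counting error were on chromosomes 8, 12 and 15 and on scaffold1008.0, scaffold364.0 and scaffold1437.0. Whether higher or lower ratios were grouped by position was not tested. Pbr028226, an 8-exon gene on chromosome 12 (plus strand, 4925594 to 4927331), of 798 coding bases, was at 193.9 FPKM in the yeast-treated library and 336.2 FPKM in the water-treated library, 1.73-fold lower (1.65 to 1.82). Pbr006135, a 4-exon gene on chromosome 8 (minus strand, 15358388 to 15359308, 411 bases), was at 181.9 FPKM in the yeast-treated library and 306.2 FPKM in the water-treated library, 1.68-fold lower (1.57 to 1.804). A pair of lower loci lies on chromosome 15 on the plus strand. The 3-exon gene at 2474523 to 2475085 was at 125.5 FPKM in the yeast-treated library and 208.7 FPKM in the water-treated library, 1.66-fold lower (1.52 to 1.83). The locus at 2921020 to 2925105, which merges 2 annotated genes, was at 203.3 FPKM in the yeast-treated library and 318.8 FPKM in the water-treated library, 1.57-fold lower (1.49 to 1.65).

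The next of the lower loci stood at 1.49-fold or less. On chromosome 12, a 2-exon gene (minus strand, 16557480 to 16558200) was at 162.2 FPKM in the yeast-treated library and 242.3 FPKM in the water-treated library, 1.49-fold lower (1.40 to 1.60). Within scaffold1008.0, a 10-exon locus (plus strand, 122091 to 124732) was the most abundant of the 25 lower members, at 499.8 FPKM in the yeast-treated library and 721.8 FPKM in the water-treated library, 1.44-fold lower (1.41 to 1.48). Their exon numbers cover a wide range. Scaffold364.0 carries a 1-exon gene (453718 to 453951) at 226.7 FPKM in the yeast-treated library and 322.3 FPKM in the water-treated library, 1.42-fold lower (1.31 to 1.55). The gene of 2 exons on scaffold1437.0 (2656 to 4600) was at 111.0 FPKM in the yeast-treated library and 156.9 FPKM in the water-treated library, lower by 1.41-fold (1.33 to 1.503). In the neighbourhood of the chromosome 1 stretch described above, 1-exon genes of 549 and 567 bases on the plus strand (8890897 to 8891445 and 8918038 to 8918604) had log2 ratios of -0.42 and -0.34. The other members of that cluster were at 0.07 and 0.02.

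By structure, ratios shifted slightly with exon number and length. The median log2 ratio was -0.07 for the 146 members of 1 exon, -0.05 for the 175 of 2 exons, -0.04 for the 463 of 3 to 5 exons and 0.01 for the 402 of 6 or more. Among the other measured loci the medians ran in the same order, at -0.04, -0.03, -0.01 and 0.04. By length, the medians of members were -0.06 up to 500 bases, -0.03 above that and up to 1000, -0.01 above that and up to 2000, and 0.03 over 2000 bases. The other measured loci, at -0.01, -0.02, 0.01 and 0.03 in these length classes, did not keep that order in the shorter classes. Across the 1186 members, Spearman's rho of the log2 ratio was 0.20 with length and 0.21 with exon number, as a description, since all points share the same libraries. Over the 21645 other measured loci above 0 in both libraries, rho was 0.07 with length and 0.12 with exon number. Exon number and length are related, and above 500 and up to 1000 bases the median was -0.10 for 40 members of 1 exon and 0.01 for 86 members of 6 or more. Other length classes showed less. Above 1000 and up to 2000 bases it was -0.04 at 1 exon, -0.08 at 2 and 0.01 at 6 or more. Up to 500 bases it was -0.07 at 1 exon, -0.07 at 2, -0.06 at 3 to 5 and -0.04 at 6 or more. No label gives the quality of the RNA, and its part in these medians was not tested.

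**Figure D5:**
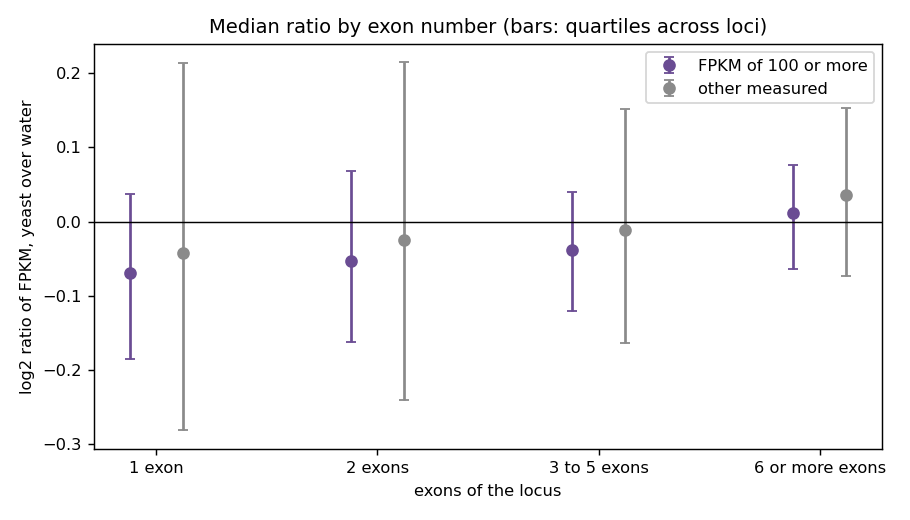
Median log2 ratio of FPKM, yeast over water (vertical axis), by number of exons of the locus, for the members (purple) and the other measured loci (grey), with bars for the quartiles across loci. The member medians run from -0.07 at 1 exon to 0.01 at 6 or more, and all quartile ranges include 0.

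As shares of all covered bases, the 3 widest differences to the lower side were at loci among the 12 most abundant, although others of the 12 differed little. The 468-base gene of chromosome 15 held 1.67% in the yeast-treated library and 1.90% in the water-treated library. The merged locus of scaffold1155.0 held 1.35% in the yeast-treated library and 1.4995% in the water-treated library, and the 13-exon gene of chromosome 3 held 0.729% with yeast and 0.857% with water. In the other direction, the minus-strand locus of the chromosome 1 stretch had the widest difference, by the values given above. Next came the 3-exon gene at 3980826 on chromosome 3, which held 0.709% in the yeast-treated library and 0.638% in the water-treated library. After it, a 2-exon gene on chromosome 9 (plus strand, 3288551 to 3289673) held 0.241% in the yeast-treated library and 0.184% in the water-treated library. It was at 2985 FPKM in the yeast-treated library and 2280 FPKM in the water-treated library, 1.31-fold higher (1.29 to 1.33). Without the most abundant gene, the members held 44.3% of the bases in both libraries.

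At the threshold, the members closest to it were at 100.2 to 100.3 FPKM in their lower library. They are a 5-exon gene on chromosome 10 (3152161 to 3154241), a 1-exon gene on chromosome 12 (2253837 to 2254901), an 11-exon locus on chromosome 17 (24009688 to 24013142) and a 1-exon gene on chromosome 1 (6802697 to 6803176). Just outside were loci at 99.7 to 99.8 FPKM in their lower library, on chromosome 4 (12364434 to 12374222), chromosome 5 (26395126 to 26400216), chromosome 10 (14911642 to 14915045) and chromosome 16 (4430970 to 4433763). In all, 64 loci had a mean of at least 100 FPKM but missed the threshold in 1 library, 31 of them in the yeast-treated and 33 in the water-treated library. The lowest such value was 68.1 FPKM in the water-treated library, at a locus with a log2 ratio of 0.98, which is above that of any member.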

How the data were processed

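RNA of 2 libraries, 1 per treatment, was sequenced. The authors deposited a gene table in FPKM and, per the file headers, a transcript table per library with FPKM and mean coverage per base (a signal). The submitters' processing notes list the tools HISAT2 and HTSeq 0.6.1 without saying what each did. Which genome build and annotation were used, and whether counting kept the strand, is not given in the sources used here. Positions follow the deposited transcript tables and count from 1.

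Each of the 31704 gene rows above 0 was joined to the locus whose summed transcript FPKM times length, divided by the row's FPKM, gave a length whole to within 0.05 bases. Read pairs were estimated as coverage times length over 300 bases, since low coverages are most often that number. Intervals of ratios are exact (Clopper-Pearson) 95% intervals, conditional on the sum of the pairs. Their computation was checked on simulated independent counts, without duplicate pairs or reads shared between loci. The check therefore does not cover those errors. Ratios are plain FPKM ratios, yeast over water, with no pseudocount. Depth was 16753518 read pairs in the yeast-treated and 19367039 in the water-treated library. Length and exon number of a locus are the length behind its FPKM and the highest exon number of its transcripts.

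Members, lists and tests were chosen with earlier results of these data known. Named were the 12 most abundant members, the 8 highest and 8 lowest ratios beyond counting error, the members of the 3 largest clusters, the 3 longest, the 3 with most exons, the 3 most abundant assembled and the 4 on each side of the threshold; other loci were picked after their values were seen. Gene lists by product could not be applied, since no identifier is paired with a product. Python 3.11.15, pandas 2.3.3 and SciPy 1.17.1 were used.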

Additional observations from a re-analysis of the deposited data

How the results depend on the processing

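With 1 library per treatment, no library could be left out, and depth limits only the counting error. No paired analysis was possible because the treatments share fewer than 2 replicate numbers. Of 66 recomputed summary values, 35 stayed within the limits set for them. Of 123 recomputed ratios of 41 named loci, none changed direction among those past 1.2-fold. Only 2 left their counting interval, both of the chromosome 1 locus with the most bases. These recomputations could hardly have turned a ratio past 1.2-fold. Centring moved log2 ratios by 0.006, a pseudocount of 1 is small beside 100 FPKM, and summing leaves loci of 1 transcript unchanged. Nothing is therefore read from the lack of reversals. The counts followed the threshold of membership. At 200 FPKM there were 477 members, with 25 higher and 13 lower (22 and 7 beyond counting error), 33.6% of the bases in the yeast-treated and 33.9% in the water-treated library, a median length of 783 bases and 7 clusters. At 50 FPKM there were 2568 members, with 102 higher and 123 lower (64 and 45 beyond counting error), 59.8% of the bases in the yeast-treated and 60.1% in the water-treated library, a median length of 1020 bases and 222 clusters. At 1.5-fold, 8 were higher and 4 lower (6 and 3 beyond counting error). Without overlapping loci, 25 were higher beyond counting error, against 39. Clusters numbered 23 at a gap of 20 kb and 87 at 100 kb. The share of bases was 44.3% in both libraries without the most abundant locus (44.26% in the yeast-treated and 44.33% in the water-treated library). As summed FPKM it was 56.3% in the yeast-treated and 56.6% in the water-treated library, and without members spanning over 50 kb, chosen after the data were seen, 40.1% in the yeast-treated and 40.6% in the water-treated library. Centring, upper-quartile scaling, a pseudocount of 1, every gene row and summed transcript FPKM gave 54 to 58 higher members and 52 to 59 lower.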
